A study of Homo sapiens with 12 samples.

Results

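MYC and its MAX-MXD network were followed through nascent transcription, as 10 genes chosen by symbol: MYC, MYCN, MYCL, MAX, MXD1, MXD3, MXD4, MXI1, MNT and MLX. All 10 were present among the 28278 gene symbols of the MYC and MYC&MED30 tables and among the 25056 symbols of the MED30 tables. Precision run-on sequencing (PRO-seq), which sequences the RNA that engaged polymerases extend in isolated nuclei, covered 12 libraries from Mia PaCa-2, a human pancreatic carcinoma cell line. By the methods, the groups came from 3 stable lines with integrated Tet-on transgenes. These were for MED30 (a Mediator subunit), for MYC-3xHA (tagged MYC), or for MED30 together with MYC-3xHA. The libraries labelled MYC did not go with that label, as described below. Each line was taken without doxycycline (Dox), called control, and with 0.5 μg/ml Dox, called overexpression, with 2 libraries per group. The induction lasted 1 day according to the methods, although 2 days are named elsewhere in the paper. Every control is the same line left uninduced, so a response to Dox itself and a response to the transgene cannot be told apart here. Whether the lines are clones or pools, and whether replicates are separate cultures, is not given in the sources used here, and the p-values therefore reflect the spread of these libraries alone, which may be technical.

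MYC, MYCN and MYCL are bHLH-zipper transcription factors that bind DNA as dimers with MAX, preferring the E-box CACGTG, and drive growth and proliferation genes. MXD1, MXI1, MXD3, MXD4 and MNT also pair with MAX, occupy the same kind of site and recruit SIN3 and histone deacetylases, so that they repress and compete with MYC. MLX is a second hub that pairs with some MXD proteins and with the glucose-responsive factors MLXIP and MLXIPL. MYC is a frequent driver in pancreatic cancer, where it is often amplified.

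The 4 libraries labelled MYC, called the MYC-labelled set here, did not go with their label. MED30 rose in them by 4.46 on the log2 scale (edgeR adjusted p = 1.58e-21) and MYC did not rise. The same was true of the libraries labelled MED30, where MED30 rose by 4.41 (limma adjusted p = 1.15e-09). In MYC&MED30, MED30 rose by 4.78 (edgeR adjusted p = 1.75e-21). That response minus the one of the MYC-labelled set was 0.32 (95% interval -0.03 to 0.67) and was not called. Moreover, each MED30 table stood in a nearly fixed ratio to the same-numbered MYC-labelled table. Over 8381 genes with at least 100 counts or scaled values in every library (10 in the shallowest), the interquartile range of that log2 ratio was 0.0611 to 0.0815. It was 0.0979 between the MED30 controls, 0.239 between the MED30 overexpression libraries and 0.856 or more between any MED30 library and a MYC&MED30 library. The log ratios of replicate 1 to replicate 2 correlated between the MED30 and MYC tables at r of 0.927 in the controls and 0.94 with Dox, across genes, which are not independent replicates. The values of these sets are therefore given side by side and are not counted as separate support. Whether they come from separate libraries was not tested. No set showed a rise of MYC without a rise of MED30. Of the raw-count libraries, MYC&MED30 control 2 was the shallowest, at 1257499 counts, and the others held 20616713 to 29881914. The MED30 tables summed to 6379143 to 6519353 and hold scaled values of unknown depth. Of the epithelial and mesenchymal genes listed for Mia PaCa-2, KRT8 was at 130 to 256 CPM (counts scaled to 1000000 per library). KRT18 (76.5 to 192) and the mesenchymal gene VIM (477 to 1380) were also present in all libraries. The other epithelial genes were lower, with CDH1 at 1.13 to 26, KRT19 at 4.87 to 10.4 and EPCAM at 0 to 0.916. MTAP was at 0.587 to 1.77, and CDKN2A and CDKN2B reached at most 0.375 and 0.163. The highest value of PTPRC, a leukocyte marker, was 1.45. Over all 15 markers of other cell types the summed level was 75.2 to 89.2 CPM in the MYC-labelled and MED30 libraries and 33 to 38.7 in MYC&MED30, with COL3A1 at 17.1 to 64.6. INS and GCG were at 0 in every library. KRT8, KRT18 and VIM fell with Dox in each set, by 0.42, 0.57 and 0.59 on the log2 scale in the MYC-labelled set and by 0.47, 0.53 and 0.54 in MYC&MED30, where all 3 calls were lost without control 1 (edgeR adjusted p = 0.0615, 0.35 and 0.103). There KRT8 and VIM were also lost without overexpression 1 (0.0639 and 0.101) and KRT8 and KRT18 without overexpression 2 (0.0567 and 0.0798), and KRT8 was lost in the MYC-labelled set without either MYC control (0.101 and 0.0618) and in MED30 without control 1 (limma adjusted p = 0.114). Of the markers of other cell types, COL1A1 rose in the MYC-labelled set (1.26, edgeR adjusted p = 0.0281) and in MED30 (0.80, limma adjusted p = 0.0186), and CDH5 fell in MYC&MED30 (-0.97, edgeR adjusted p = 0.0281). COL1A1 was lost without either control in both sets and, in the MYC-labelled set, without overexpression 2, and CDH5 was lost in 7 of 16 settings. The part of these shifts in the results was not tested.

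Because MYC-MAX and MXD-MAX dimers share the E-box, the promoters of the network genes were searched for CACGTG, which reads alike on both strands, from 250 bases before to 50 after each start in RefSeq (GRCh38.p14). The promoter table held 9 of the 10 genes, with 12 promoters, and the promoter of MYC was not analysed here. The motif was found for MLX, MNT and MXD4, in 3 of 12 promoters, against 2548 of 35116 promoters in all (7.26%). The looser CANNTG, which includes CACGTG, was present in 8 of the 12 promoters (8 genes), and in 68.7% of all promoters. The sites are shown as windows of 30 bases with the E-box in capitals, written 5′ to 3′ along the gene's strand, and lie 50, 193 and 238 bases upstream of the start of MLX, MNT and MXD4.
MLX, chr17:42567038-42567067, plus strand: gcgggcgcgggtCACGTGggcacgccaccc
MNT, chr17:2401236-2401265, minus strand: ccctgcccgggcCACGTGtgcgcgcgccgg
MXD4, chr4:2262330-2262359, minus strand: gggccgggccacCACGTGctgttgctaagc
Of these 3 genes, MNT was called with Dox in MYC&MED30, and MLX and MXD4 were not called with Dox in any set. MYCL, called in the MYC-labelled set and MYC&MED30, had no CACGTG in its promoter. Nor had MXD1, called in the MYC-labelled set and MED30. The match is a description of the sequence and no evidence of binding.

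With Dox, MYC fell in the MYC-labelled set and rose in MYC&MED30, and MYCL rose in both. Of 9 network genes tested in the MYC-labelled set, 1 was higher and 2 were lower at an adjusted p under 0.05, where 13% of 19318 tested genes were called (5.32% higher, 7.71% lower). In MYC&MED30, 3 of 9 were higher and none lower, where 6.74% of genes were called (3.65% higher, 3.09% lower). In MED30, 2 of 8 tested were lower, where 16.2% of 14771 genes were called (7.46% higher, 8.73% lower). The median log2 fold change of the network genes was -0.01, 0.11 and 0.01, beside 0.01, 0.02 and 0.01 for all tested genes. The counts of called members went down to 1 in the MYC-labelled set without MYC control 1, to 1 in MYC&MED30 without MYC&MED30 control 1, and to 1 in MED30 without either control, but rose to 4 without MED30 overexpression 1.

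**Figure D1:**
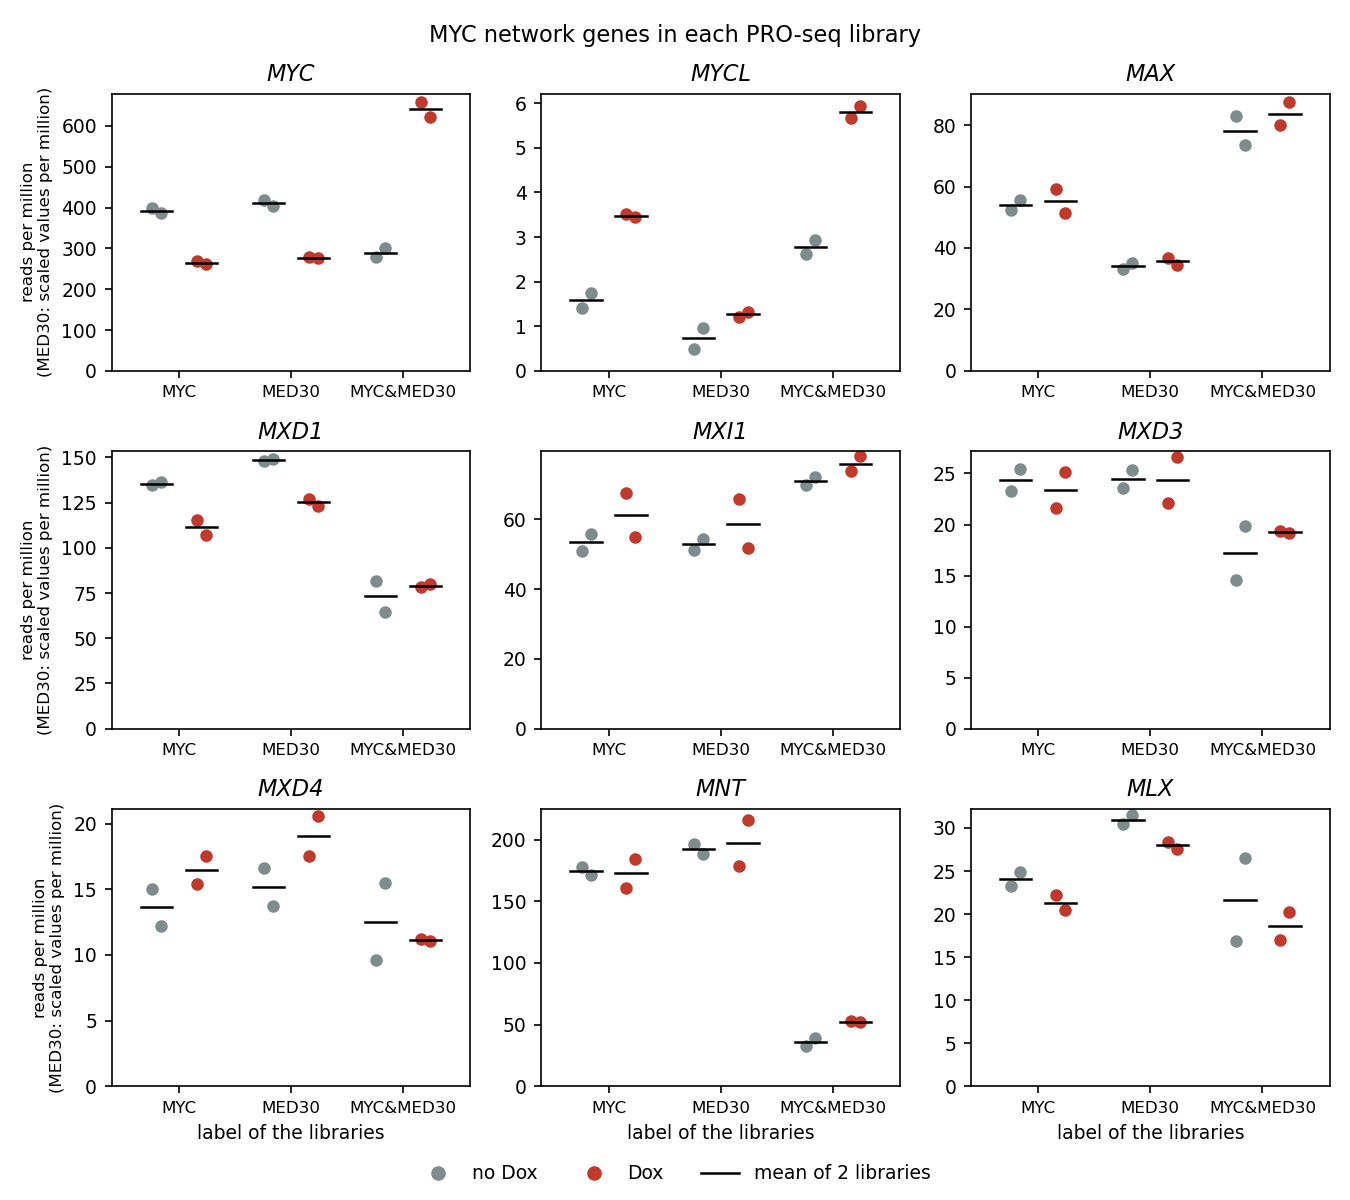
Level of 9 network genes in each PRO-seq library, in CPM after TMM scaling (of the scaled values for MED30), grouped by the label of the libraries. Grey points are libraries without Dox, red points with Dox, and bars the mean of 2. MYC with Dox sits at 622.7 and 659.3 in MYC&MED30, above all other libraries, and at 261.3 and 268.8 in the MYC-labelled set, below their controls.

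MYC encodes the central activator of the network and lies on chromosome 8 from 127735434 to 127742951, plus strand, in GRCh38, with CASC11 on the opposite strand. In the MYC-labelled set it was at 398.2 and 386.7 CPM in the controls and at 268.8 and 261.3 with Dox. In MYC&MED30 it was at 279.3 and 300 in the controls and at 659.3 and 622.7 with Dox. The MED30 tables gave 417.4 and 403.1 without and 279.7 and 275.3 with Dox, in CPM of the scaled values. In no set did the groups overlap, and the MYC&MED30 libraries with Dox lay above all the others. The log2 fold change was -0.57 in the MYC-labelled set (standard error 0.09, edgeR adjusted p = 7.64e-05), 1.16 in MYC&MED30 (standard error 0.10, edgeR adjusted p = 1.89e-09) and -0.56 in MED30 (standard error 0.06, limma adjusted p = 0.000411). The response of MYC&MED30 minus that of the MYC-labelled set was 1.72 (95% interval 1.45 to 2.00, edgeR adjusted p = 3.68e-09). MYC kept its call and its direction in each of the 18 other settings of both raw-count responses. The tables do not separate reads of the endogenous gene from those of the MYC-3xHA transgene, and a lower value may be fewer transcribing cells or less transcription per cell, which cannot be told apart.

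PVT1, a long non-coding RNA gene downstream of MYC, gives a reading of the same locus outside the transgene. It was at 1657 and 1641 CPM without and 1464 and 1374 with Dox in the MYC-labelled set, and at 1013 and 914 without and 872.1 and 903.2 with Dox in MYC&MED30. With Dox, all libraries were thus lower than their controls. The log2 fold change was -0.22 (edgeR adjusted p = 0.162) and -0.12 (edgeR adjusted p = 0.561), so neither change was called. The first was called with upper-quartile scaling (-0.17, edgeR adjusted p = 0.0473) and with DESeq2 on the 8 libraries (-0.20, DESeq2 adjusted p = 0.0275), and the second with edgeR on the 4 libraries of the line (-0.15, edgeR adjusted p = 0.0367). In MED30 it was -0.18 (limma adjusted p = 0.0682), and was called without MED30 overexpression 1 (-0.20, limma adjusted p = 5.47e-10) or overexpression 2 (-0.16, limma adjusted p = 8.81e-07).

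MYCN and MYCL are the paralogs of MYC, best known from neural and small-cell lung tumors. MYCN was not transcribed at a level that this depth could measure. It had 1 count in MYC control 1 and in MYC&MED30 overexpression 2, 2 counts in MYC overexpression 2 and 0 counts in the remaining raw-count libraries, and it was listed at 0 in the MED30 tables. A count of 0 allows up to 0.118 to 0.14 CPM in the deep libraries and 2.21 in MYC&MED30 control 2, for counting error only.
MYCL, on chromosome 1 from 39895428 to 39901917, was low but rose with Dox. It was at 1.416 and 1.75 CPM without and 3.509 and 3.442 with Dox in the MYC-labelled set, and at 2.625 and 2.941 without and 5.667 and 5.944 with Dox in MYC&MED30. All libraries with Dox lay above their controls in both sets. The rise was 2.2-fold in the MYC-labelled set (log2 fold change 1.13, standard error 0.27, edgeR adjusted p = 0.00394) and 2.18-fold in MYC&MED30 (1.13, standard error 0.29, edgeR adjusted p = 0.014). Of all tested genes, 1.52% in the MYC-labelled set and 4.64% in MYC&MED30 had a change at least as far from 0. The difference of the responses was -0.01, with a 95% interval from -0.71 to 0.70. The call was lost in the MYC-labelled set without MYC control 1 (0.98, edgeR adjusted p = 0.141), and in MYC&MED30 without MYC&MED30 control 1 (1.00, 0.536), without overexpression 2 (1.09, 0.0722) and with DESeq2 on the 8 libraries (1.10, DESeq2 adjusted p = 0.0953). MYC&MED30 control 2 rests on 4 MYCL counts, with an exact Poisson 95% interval of 0.801 to 7.53 CPM. In the MED30 tables MYCL was at 0.4882 and 0.9685 without and 1.209 and 1.322 with Dox and too low to be tested.

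MAX and MLX, the shared partners, did not pass the test with Dox in any set. MAX was at 52.45 and 55.74 CPM without and 59.25 and 51.54 with Dox in the MYC-labelled set, and at 82.82 and 73.53 without and 79.9 and 87.55 with Dox in MYC&MED30. The groups overlapped in both. The 95% interval of the log2 fold change was -0.16 to 0.23 and -0.16 to 0.27, and in MED30 -0.14 to 0.27. MAX overlaps FNTB on the opposite strand, and its level in the MED30 tables (33.03 to 36.72 CPM of the scaled values) stands lower against the other genes than in the raw counts. MLX was at 23.31 and 24.85 CPM without and 22.17 and 20.5 with Dox in the MYC-labelled set (log2 fold change -0.18, 95% interval -0.44 to 0.09). In MYC&MED30 it was at 16.85 and 26.47 without and 16.95 and 20.27 with Dox (0.03, -0.29 to 0.35), although the plain mean was lower with Dox. Here the controls lay farther apart than the groups, and control 2 rests on 36 counts.

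**Figure D2:**
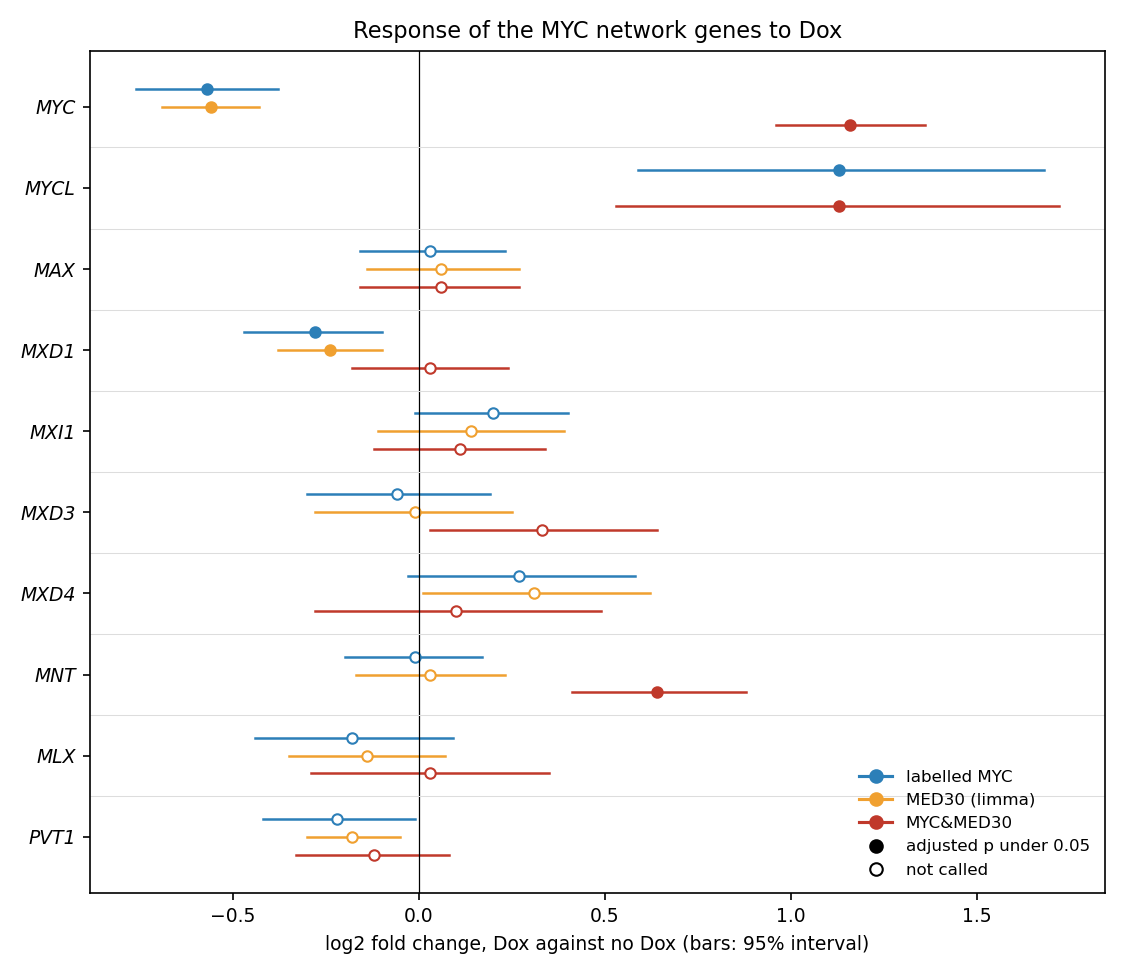
Response of the network genes and PVT1 to Dox, as log2 fold change with its 95% interval, in the MYC-labelled set (blue, edgeR), MED30 (orange, limma) and MYC&MED30 (red, edgeR); filled points have an adjusted p under 0.05. MYC lies at -0.57 and -0.56 in the first sets and at 1.16 in MYC&MED30, and MNT is apart from 0 in MYC&MED30 alone (0.64).

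Among the MAX-binding repressors, MXD1 fell by a small amount in the MYC-labelled set, and MXI1, MXD3 and MXD4 did not pass the test in any set. MXD1, a gene known to rise as cells differentiate, was at 134.8 and 136.2 CPM without and 115.3 and 107.3 with Dox in the MYC-labelled set, with no overlap. In MYC&MED30 it was at 81.52 and 64.71 without and 78.07 and 80 with Dox, with the libraries with Dox between the controls. The log2 fold change was -0.28 in the MYC-labelled set (standard error 0.09, edgeR adjusted p = 0.0352), -0.24 in MED30 (standard error 0.06, limma adjusted p = 0.0299) and 0.03 in MYC&MED30 (standard error 0.10, edgeR adjusted p = 0.92). The difference of the raw-count responses was 0.32 (95% interval 0.03 to 0.60, edgeR adjusted p = 0.333).
The MXD1 call in the MYC-labelled set was lost in 11 of 18 other settings. It was lost without MYC control 1 (edgeR adjusted p = 0.281), MYC control 2 (0.358), MYC overexpression 2 (0.13), MYC&MED30 overexpression 1 (0.0857) or MYC&MED30 overexpression 2 (0.0852). With counts thinned to the smallest total the value was -0.02 (edgeR adjusted p = 0.967), and with library size alone -0.14 (edgeR adjusted p = 0.142), a scaling that raised the median change over all genes by 0.149. In MED30 the call was lost without control 1 (limma adjusted p = 0.348) or control 2 (0.412), and with library size alone (-0.14, limma adjusted p = 0.115).

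MXI1, also called MXD2, was at 50.95 and 55.74 CPM without and 67.43 and 54.98 with Dox in the MYC-labelled set, and at 69.89 and 72.06 without and 73.76 and 78.14 with Dox in MYC&MED30. The log2 fold change was 0.20 (standard error 0.10, edgeR adjusted p = 0.213) and 0.11 (standard error 0.11, edgeR adjusted p = 0.656). The first was called without MYC overexpression 2 (0.36, edgeR adjusted p = 0.00627) and with library size alone (0.34, 0.00837). In MED30, where it was 0.14 (limma adjusted p = 0.415), it was called without MED30 overexpression 2 (0.31, limma adjusted p = 6.55e-05).
MXD3, a repressor described in cycling cells, was at 21.57 to 25.42 CPM in the MYC-labelled set, with overlapping groups, and at 14.57 and 19.85 without and 19.34 and 19.19 with Dox in MYC&MED30. The log2 fold change was -0.06 (95% interval -0.30 to 0.19) and 0.33 (0.03 to 0.64, edgeR adjusted p = 0.202), and without MYC&MED30 control 1 the latter was -0.02. MXD4 was at 12.21 to 17.5 CPM in the MYC-labelled set, with every library with Dox above both controls, and at 9.598 and 15.44 without and 11.19 and 11.07 with Dox in MYC&MED30. In MYC&MED30 the libraries with Dox lay between the controls. The log2 fold change was 0.27 (edgeR adjusted p = 0.257), 0.10 (edgeR adjusted p = 0.833, against plain means of 12.5 without and 11.1 with Dox, since the fit gives the shallow control less weight) and, in MED30, 0.31 (limma adjusted p = 0.145), which was called without MED30 overexpression 1 (0.42, limma adjusted p = 0.002).

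MNT, the MAX partner that is present in growing and resting cells and restrains MYC, rose with Dox in MYC&MED30. In the MYC-labelled set it was at 177.8 and 170.9 CPM without and 160.7 and 184.3 with Dox, with overlapping groups. In MYC&MED30 it was at 32.4 and 38.97 without and 52.59 and 52.07 with Dox, so that both libraries with Dox lay above both controls, and all 4 were far below those of the MYC-labelled set. The rise of MNT was 1.56-fold in MYC&MED30 (log2 fold change 0.64, standard error 0.12, edgeR adjusted p = 0.000493), while its value in the MYC-labelled set was -0.01 (95% interval -0.20 to 0.17) and in MED30 0.03 (-0.17 to 0.23), called in MED30 without overexpression 1 (0.16, limma adjusted p = 0.00104). The raw-count responses differed by 0.66 (95% interval 0.36 to 0.96, edgeR adjusted p = 0.0226).
MYC and MNT were the 2 network genes of 9 whose responses differed at an adjusted p under 0.05, and both differences were positive, where 1.07% of all genes were called (0.714% positive, 0.357% negative). MYC&MED30 control 2 rests on 53 MNT counts, with an exact Poisson 95% interval of 29.2 to 51 CPM. Without that library, MYC, MYCL and MNT were still called in MYC&MED30 (1.19, 1.14 and 0.69, edgeR adjusted p = 5.99e-07, 0.0221 and 0.000829), as were the differences of MYC (1.76, 6.19e-07) and MNT (0.70, 0.0227). Without MYC&MED30 control 1, which leaves this shallow library as the only control, the MNT rise was 0.44 (edgeR adjusted p = 0.348), and with thinned counts it was 0.37 (0.374). The difference was not called without either MYC control (0.62, edgeR adjusted p = 0.194, and 0.68, 0.116), without MYC&MED30 control 1 (0.46, 0.346), without MYC&MED30 overexpression 1 (0.65, 0.121) or overexpression 2 (0.66, 0.116), or with the replicate block (0.63, 0.0789), and with thinned counts it was 0.27 (0.809).

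Without Dox, the MYC&MED30 controls differed from the MYC controls in 8 of 9 network genes, with 3 higher and 5 lower, but so did 60.2% of all tested genes (30% higher, 30.2% lower). The line and the preparation or sequencing batch cannot be told apart in this comparison. MNT was 5.21-fold lower in the MYC&MED30 controls (log2 difference -2.38, standard error 0.12, edgeR adjusted p = 1.76e-16), and 4.11% of all genes were at least as far from 0. MXD1 (-0.81, standard error 0.10, edgeR adjusted p = 8.8e-08), MXD3 (-0.67, 0.15, 0.000259), MYC (-0.45, 0.10, 0.000234) and MLX (-0.40, 0.15, 0.027) were lower too. MAX (0.57, 0.11, 3.07e-05), MXI1 (0.40, 0.11, 0.00265) and MYCL (0.75, 0.32, 0.0437) were higher, and MXD4 was not called (-0.40, 0.19, 0.0659). For each of the other network genes, 38% or more of all genes were at least as far from 0. The called values of MNT, MXD1 and MYC held their call in each of 16 other settings. Without MYC&MED30 control 1 the count of called genes was 3, and MYCL, MAX, MXD3 and MXI1 were no longer called (edgeR adjusted p = 0.443, 0.076, 0.448 and 0.11), while MLX turned to 0.13. Without MYC control 1 the count was 5, with MYCL, MXI1 and MLX lost (0.247, 0.0591 and 0.0621), and without MYC control 2, MYCL and MLX were lost (0.0743 and 0.157). MXD4 was called without MYC overexpression 1 (0.0347), MYC overexpression 2 (0.0363) or MYC&MED30 control 2 (0.0224), and with the upper quartile (0.0349) or DESeq2 size factors (0.0485). MYCL was lost in 8 of 15 settings and MLX was lost or turned in 8 of 16.

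**Figure D3:**
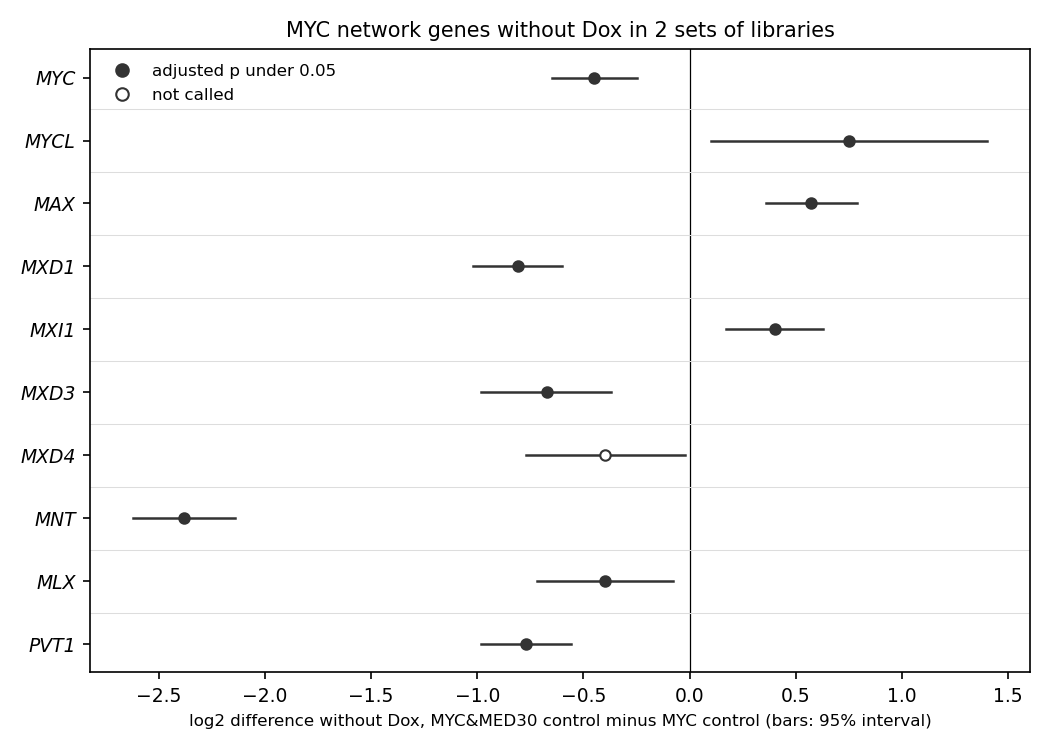
Difference between the uninduced MYC&MED30 and MYC controls for the network genes and PVT1, on the log2 scale with its 95% interval (edgeR); filled points have an adjusted p under 0.05. MNT lies at -2.38, apart from the other genes, which lie between -0.81 and 0.75.

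Levels between genes were compared per kilobase of gene span, since the reads were counted over whole gene bodies. MYC was first in all 6 groups, from 35.3 ± 0.7 CPM per kilobase in the MYC-labelled overexpression libraries to 85.3 ± 3.44 in those of MYC&MED30 (SD, n = 2). In the MYC-labelled controls it was followed by MNT (10.3 ± 0.29), MXD1 (4.87 ± 0.0361), MLX (3.94 ± 0.178), MXD3 (3.36 ± 0.205), MXD4 (0.927 ± 0.135), MXI1 (0.669 ± 0.0424), MAX (0.56 ± 0.024) and MYCL (0.244 ± 0.0363), and all neighbours in that order stood apart by more than their summed SD. In the MYC&MED30 controls, MLX, MXD1, MXD3 and MNT followed MYC at 3.55, 2.63, 2.37 and 2.1 CPM per kilobase, and no neighbours among these 4 differed beyond their spread. With Dox in MYC&MED30, MNT (3.08), MLX (3.05) and MXD1 (2.84) were again within their spread of each other in that order. The order depends on the length used. Per kilobase of exon, MXD1 (21.3) stood above MNT (20) in the MYC-labelled controls, MXI1 (9.03) and MAX (8.65) stood above MLX (5.66) and MXD3 (5.14), and MAX was second in the MYC&MED30 controls (12.5) and eighth per kilobase of span.

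Relative to the repressors, MYC moved in opposite directions in the sets. Within each library, the level of MYC per kilobase was divided by the sum of MXD1, MXD3, MXD4, MXI1 and MNT, a measure that does not depend on scaling between libraries. It was 2.62 and 2.57 without and 1.94 and 1.73 with Dox in the MYC-labelled set, and 4.44 and 4.29 without and 8.55 and 8.03 with Dox in MYC&MED30. In MED30 it was 2.54 and 2.49 without and 1.85 and 1.6 with Dox. MYC was already higher against this sum in the MYC&MED30 controls, in which its own level was lower and that of MNT was far lower. Of the summed level of all 10 genes, MYC made up 68.1% and 67.4% without and 60.6% and 58.7% with Dox in the MYC-labelled set, and 75% and 72.9% without and 85.6% and 84.3% with Dox in MYC&MED30. Both sums were taken per kilobase of gene span only. Per kilobase of exon, MYC (64.2) stood closer to MXD1 (21.3), MNT (20) and MXI1 (9.03) in the MYC-labelled controls than per kilobase of span. The size of these ratios and shares therefore depends on the length used.
Over MAX, MYC went from 97.6 and 89.2 to 58.3 and 65.1 in the MYC-labelled set and from 43.3 and 52.4 to 106 and 91.4 in MYC&MED30. Per exon length the group means were 7.44 and 4.92, and 3.82 and 7.86. The choice of length multiplies this ratio by the same factor in every library. It thus sets the size of the ratio and cannot test its direction. In none of these ratios did the groups overlap, but with 2 libraries per group an exact permutation test cannot go below p = 0.333, and no test was made. These are ratios of nascent transcription, not of proteins.

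**Figure D4:**
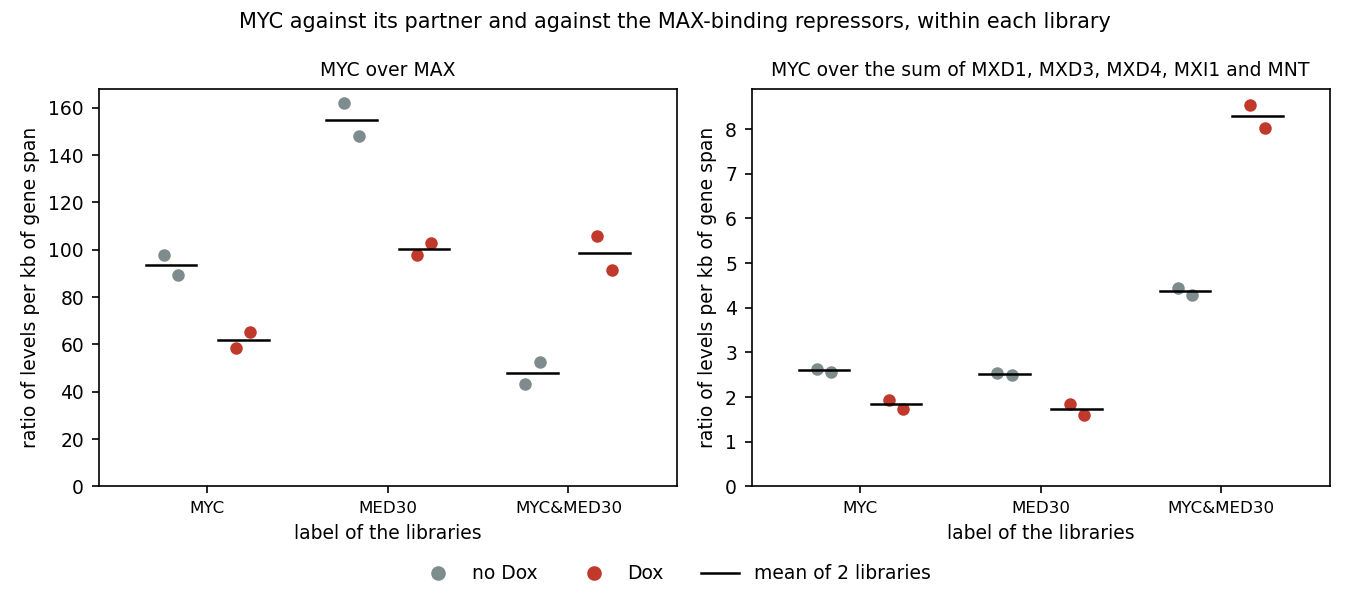
MYC over MAX (left) and MYC over the sum of MXD1, MXD3, MXD4, MXI1 and MNT (right), as ratios of levels per kilobase of gene span within each library; points are libraries (grey without Dox, red with Dox) and bars the mean of 2. The ratio to the repressors goes from 4.44 and 4.29 to 8.55 and 8.03 in MYC&MED30 and falls with Dox in the other sets. MAX stands lower against the other genes in the MED30 tables than in the raw counts, for a reason that was not tested. The left-hand values of MED30 are therefore compared only among themselves.

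The genes whose pattern over the 8 raw-count libraries was most like that of MYC were BCAT1, a cytosolic branched-chain aminotransferase, SCFD2, the channel gene BEST4, ERVH48-1 and C5-OT1. The measure was the root mean square difference of centred log2 CPM, over 14123 genes with a mean log2 CPM above 2. It was 0.224 for BCAT1, 0.270 for SCFD2, 0.273 for BEST4, 0.281 for ERVH48-1 and 0.287 for C5-OT1, beside a median of 0.552 over all genes and a deviation of 0.499 for MYC itself. BCAT1 had log2 fold changes of -0.37 in the MYC-labelled set and 0.63 in MYC&MED30, both smaller than those of MYC. Without Dox, MYC was lower in the MYC&MED30 controls (-0.45) but BCAT1 was at 0.03, SCFD2 at -0.06, BEST4 at -0.21, ERVH48-1 at 0.24 and C5-OT1 at 0.41. Without MYC&MED30 control 2, BCAT1 and ERVH48-1 ranked 1 and 2, and SCFD2, BEST4 and C5-OT1 ranked 4, 7 and 11.

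Around the network, 1 gene of the MLX arm rose with Dox. The list of the wider network held 8 genes, which were MGA, MLXIP, MLXIPL, SIN3A, SIN3B, HDAC1, HDAC2 and NCOR1. In each set 1 of them rose and none fell, where 5.32%, 3.65% and 7.46% of all genes were higher in the MYC-labelled set, MYC&MED30 and MED30. It was MLXIPL (ChREBP), the glucose-responsive partner of MLX, with 0.67 in the MYC-labelled set (standard error 0.11, edgeR adjusted p = 4.08e-05), 0.54 in MYC&MED30 (standard error 0.13, edgeR adjusted p = 0.0096) and 0.70 in MED30 (standard error 0.12, limma adjusted p = 0.0047). The rise in MYC&MED30 was lost in 5 of 18 settings, among them without control 1 (0.33, edgeR adjusted p = 0.65) and without overexpression 2 (0.54, 0.056). The list median in that order was 0.03, 0.01 and 0.07, beside 0.01, 0.02 and 0.01 for all genes.
Of 8 genes described as targets of MLX and its partners, 7 were tested in the raw counts, and the MYC-labelled set had 3 lower and 0 higher and MYC&MED30 had 1 higher and 0 lower, beside 7.71% lower and 3.65% higher over all tested genes. In MED30, 2 of 5 tested were lower, beside 8.73%. The 3 lower genes were KLF10, a zinc finger repressor (-0.40, edgeR adjusted p = 0.00705), ACACA, the acetyl-CoA carboxylase of fatty acid synthesis (-0.38, 0.00922), and TKT, a transketolase (-0.39, 0.00953). KLF10 was also the higher gene in MYC&MED30 (0.38, edgeR adjusted p = 0.04), and its responses differed by 0.78 (edgeR adjusted p = 0.00859). In the MYC-labelled set, each of these 3 calls was lost without either MYC control. That of ACACA was also lost without MYC overexpression 2 (0.0539), and that of KLF10 without it too (0.0696), while KLF10 and TKT were lost with library size alone (0.0634 and 0.0581). The KLF10 rise in MYC&MED30 was lost in 11 of 18 settings, among them each library of that line left out in turn, and its difference without MYC control 1 (0.73, 0.082), MYC&MED30 control 1 (0.79, 0.138) or overexpression 2 (0.73, 0.0603).

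Of 20 cofactors of the MYC protein, 2 were called in the MYC-labelled set and 1 in MYC&MED30, all lower, beside 7.71% and 3.09% lower over all tested genes, and in MED30 2 of 19 were lower, beside 8.73%. AURKA, a mitotic kinase that stabilizes MYC proteins, fell in the MYC-labelled set (-0.38, edgeR adjusted p = 0.00292), in MYC&MED30 (-0.48, 0.00173) and in MED30 (-0.35, limma adjusted p = 0.0137). HCFC1, a chromatin cofactor of MYC, fell in the MYC-labelled set (-0.32, edgeR adjusted p = 0.018) and in MED30 (-0.26, limma adjusted p = 0.0215), and no cofactor was called higher. The AURKA call was lost without either MYC control (0.0696 and 0.146) in the MYC-labelled set, without MYC&MED30 control 1 (0.204) or overexpression 2 (0.0703) in MYC&MED30, and without either control in MED30 (limma adjusted p = 0.111 and 0.187). That of HCFC1 was lost without either control in both sets, and in the MYC-labelled set also without overexpression 2 (edgeR adjusted p = 0.067).
Of 20 genes that act on MYC protein stability, 3 fell in the MYC-labelled set, HUWE1, a ubiquitin ligase (-0.34, edgeR adjusted p = 0.0169), USP36, a nucleolar deubiquitinase (-0.29, 0.0249), and CIP2A, a phosphatase inhibitor that protects MYC (-0.32, 0.0427), and none was called in MYC&MED30. Over all tested genes 7.71% were lower in the MYC-labelled set and 6.74% were called in MYC&MED30. In MED30, 2 of 19 were lower, beside 8.73% of all genes: HUWE1 (-0.29, limma adjusted p = 0.0126) and SET, an inhibitor of the phosphatase PP2A (-0.35, limma adjusted p = 0.045), both lost without either MED30 control. In MYC&MED30, 0 of 20 passed the adjusted test of edgeR and 0 that of DESeq2 on the 8 libraries, and 5 had an unadjusted edgeR p under 0.05. The share of all genes under that unadjusted threshold is not given here, and the shares above are of adjusted calls. The calls of HUWE1, USP36 and CIP2A were each lost without either MYC control and without either MYC&MED30 overexpression library, and those of HUWE1 and CIP2A also without MYC overexpression 2 (0.0921 and 0.35).

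Of 23 tested genes that MYC is described to activate, the MYC-labelled set had 6 lower, MED30 had 5 lower and MYC&MED30 had 1 higher, with none called the other way. Over all tested genes, 7.71% were lower in the MYC-labelled set, 8.73% were lower in MED30 and 3.65% were higher in MYC&MED30. The list median was -0.16 in the MYC-labelled set, -0.13 in MED30 and 0.01 in MYC&MED30. HSPD1, a mitochondrial chaperonin (-0.71, edgeR adjusted p = 9e-06), LDHA, which makes lactate (-0.64, 1.86e-05), and RCC1, the exchange factor for the GTPase RAN (-0.56, 0.000186), fell in the MYC-labelled set and held their call in each of 18 other settings. In MED30 they were at -0.67, -0.59 and -0.51 (limma adjusted p = 0.000173, 0.000309 and 0.0017). The other called genes held less well. In the MYC-labelled set, SHMT2, GNL3 and PTMA were lost in 2, 5 and 9 of 18 settings. In MED30, SHMT2 was lost in 4 and GNL3 in 5 of 11 settings. For RCC1 the response of MYC&MED30 minus that of the MYC-labelled set was 0.62 (edgeR adjusted p = 0.0228). That call was lost without either MYC control (0.251 and 0.15), without MYC&MED30 control 1 (0.0533), overexpression 1 (0.203) or overexpression 2 (0.0926), and with the replicate block (0.64, 0.085). The gene that rose in MYC&MED30 was BOP1, a ribosome biogenesis factor (0.52, edgeR adjusted p = 0.03). It was lost in 5 of 18 settings: without MYC&MED30 control 1 (0.07, 0.938) or overexpression 1 (0.43, 0.199), with thinned counts (0.06, 0.97), and with DESeq2 on 8 (0.46, DESeq2 adjusted p = 0.226) or 4 libraries (0.40, 0.689).
Of 13 tested genes that MYC is described to repress, the MYC-labelled set had 4 higher and 2 lower, and MYC&MED30 had 2 lower and none higher. In MED30, 3 of 12 were higher and 2 lower. Over all tested genes, 5.32% were higher and 7.71% lower in the MYC-labelled set, 3.65% and 3.09% in MYC&MED30 and 7.46% and 8.73% in MED30. CDKN1A, the cell-cycle inhibitor p21, had a log2 fold change of 0.91 in the MYC-labelled set (edgeR adjusted p = 7.34e-07) and 0.93 in MED30 (limma adjusted p = 0.0006), and held in all other settings of both. The other higher genes of the MYC-labelled set were NDRG1, CEBPA and NDRG2, lost in 3 of 18, 3 of 18 and 4 of 17 settings. In MED30, NDRG1 was lost in 3 and CEBPA in 2 of 11 settings. CDKN1B, the inhibitor p27, was at -0.60 in the MYC-labelled set (edgeR adjusted p = 5.01e-05), a call lost with thinned counts (-0.30, 0.443). FTH1, the ferritin heavy chain, was at -0.61 in the MYC-labelled set (edgeR adjusted p = 2.67e-05), at -0.43 in MYC&MED30 (edgeR adjusted p = 0.00751) and at -0.62 in MED30 (limma adjusted p = 0.000272). Its call in MYC&MED30 was lost without control 1 (0.106) or overexpression 2 (0.264). ITGB4, also lower in MYC&MED30, was lost in 9 of 18 settings. The list median was 0.08 in the MYC-labelled set, -0.21 in MYC&MED30 and 0.09 in MED30. The list thus held called genes of both directions in the MYC-labelled set.

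Among 9 tested neighbours of MYC on chromosome 8, 3 fell in the MYC-labelled set and 2 in MYC&MED30, and 3 of 6 fell in MED30, beside 7.71%, 3.09% and 8.73% lower over all tested genes. CASC8 and CCAT1, non-coding genes upstream of MYC, fell in each set. CCAT1 was at -0.47 in the MYC-labelled set (edgeR adjusted p = 0.00108), at -0.81 in MYC&MED30 (5.07e-06) and at -0.43 in MED30 (limma adjusted p = 0.00673). CASC8 was at -0.57 (edgeR adjusted p = 0.000323), -0.68 (0.000146) and -1.04 (limma adjusted p = 0.000872), and its call in MYC&MED30 was lost without control 1 (-0.53, 0.213). ASAP1 fell in the MYC-labelled set (-0.38, edgeR adjusted p = 0.0115) and in MED30 (-0.34, limma adjusted p = 0.013). It was no longer called in either set without either control, and in the MYC-labelled set also without overexpression 2 (-0.23, edgeR adjusted p = 0.117).
Of 9 bHLH-zipper factors outside the network, which can share the E-box, 1 was higher and 1 lower in the MYC-labelled set, and 2 were higher and none lower in MYC&MED30, beside 5.32% higher and 7.71% lower, and 3.65% higher and 3.09% lower, over all tested genes. In MED30, 1 of 7 was higher and 1 lower, beside 7.46% and 8.73%. TFEB, a lysosome regulator, rose in the MYC-labelled set (0.50, edgeR adjusted p = 0.0293), in MYC&MED30 (0.67, 0.0297) and in MED30 (0.50, limma adjusted p = 0.0295). SREBF1, the lipid synthesis regulator, rose in MYC&MED30 (0.65, edgeR adjusted p = 0.000135), and its responses differed by 0.61 (0.0232). The lower genes were TFE3, a relative of TFEB, in the MYC-labelled set (-0.28, edgeR adjusted p = 0.0498), a call lost in 14 of 18 settings, among them without either MYC control (0.335 and 0.334), and SREBF2, the sterol regulator, in MED30 (-0.21, limma adjusted p = 0.0415), lost without either control (0.496 and 0.415). TFEB was not called without either control of each set, nor without MYC overexpression 2 (0.0777) or MYC&MED30 overexpression 1 (0.268). The rise of SREBF1 was not called without MYC&MED30 control 1 (0.65, 0.0629) or with thinned counts (0.36, 0.17). Its difference was not called without either MYC control (0.286 and 0.133), without MYC&MED30 control 1 (0.14), overexpression 1 (0.19) or overexpression 2 (0.0972), with the replicate block (0.62, 0.082) or with thinned counts (0.20, 0.822).

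**Figure D5:**
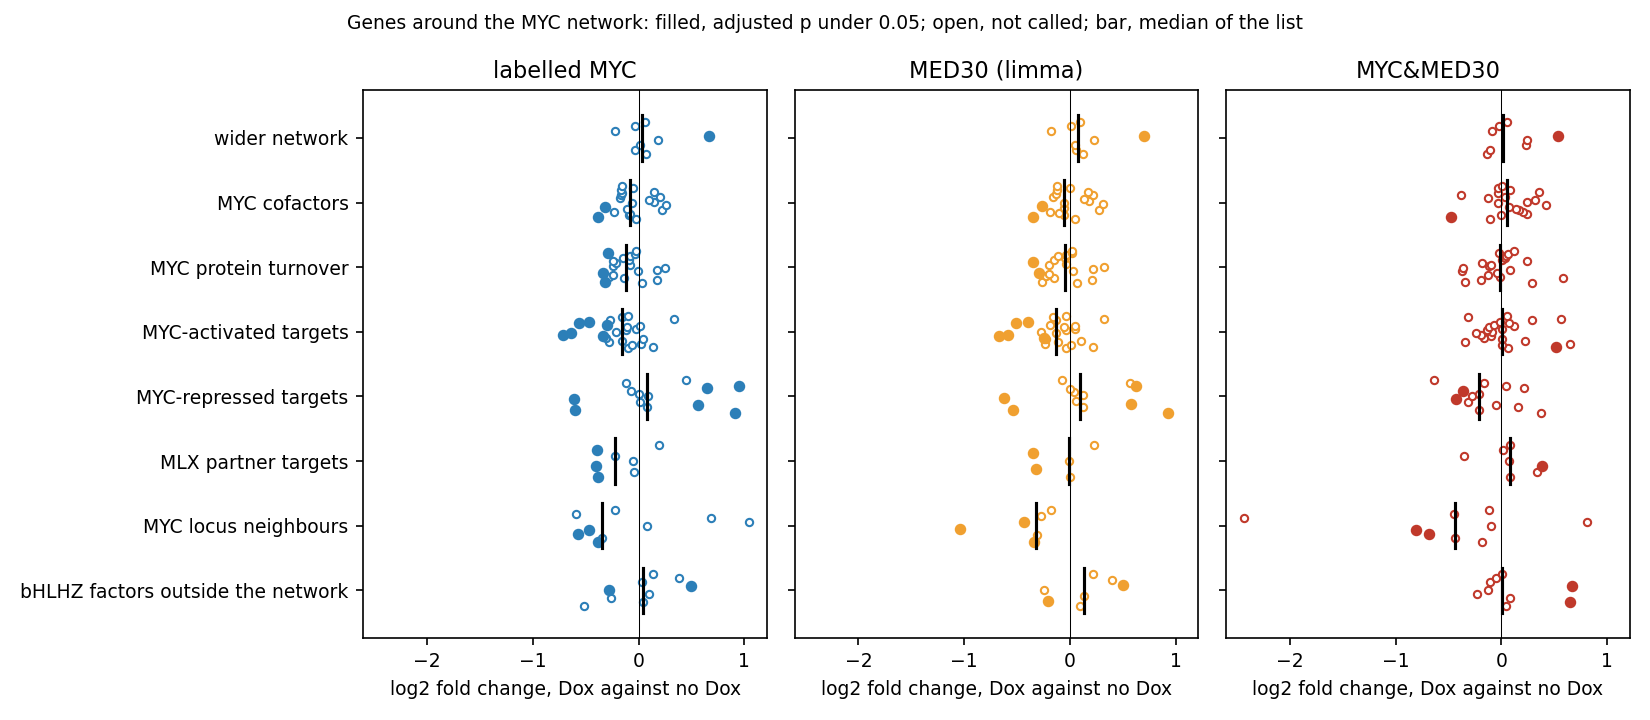
Log2 fold change with Dox of the genes in 8 lists around the MYC network, in panels for the MYC-labelled, MED30 and double-line libraries. Points are tested genes, filled at an adjusted p under 0.05, and bars are list medians; the median of the MYC-activated targets is -0.16, -0.13 and 0.01 from left to right.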

How the data were processed

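Per the labels and the methods, the authors trimmed the PRO-seq reads (Trim Galore), aligned them to hg38 (Bowtie2), and used featureCounts 2.0.3 for sense-strand counts across each whole gene and DESeq2 2.11.40.8 for testing. Raw counts are in the 8 deposited tables of the MYC-labelled and double-line libraries. The 4 deposited tables labelled MED30 hold a score: values that were scaled to nearly equal totals and rounded, in a way the sources used here do not state, and in which 11 symbols had become numbers. The methods describe a spike-in only for other experiments, so values are relative to all genes.

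Counts were tested in R 4.3.3 with edgeR 4.0.16 (TMM, filterByExpr, glmQLFit, glmQLFTest, 4 groups in one fit). For MED30, limma 3.58.1 (eBayes, trend) took log2(CPM + 1) after TMM, where CPM is scaled to 1000000 per library, for genes reaching 10 in 2 or more libraries, which understates changes of low genes. P-values were adjusted by Benjamini-Hochberg over all tested genes, with a threshold of 0.05. Intervals cover 95%. Depth was 20616713 to 29881914 counts, except 1257499 in MYC&MED30 control 2. Intervals of counts are exact Poisson and, like the floor of 3 counts, cover counting error only. Positions, spans and promoters are from RefSeq (GRCh38.p14) and exon lengths from GENCODE.

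The network genes and the 12 gene lists were chosen with earlier results of these data known. A gene of these lists is not reported here. The text names all members, MED30, PVT1, in each list the tested genes with the smallest p or those called in both raw-count comparisons, and the 5 genes most like MYC. A few other called genes are named after their values were seen. On simulated data (dispersion 0.01, 200 changed genes), 46% of genes changed 1.5-fold and 98% of those changed 2-fold were recovered for the MYC-labelled set, and 34% and 88% for MYC&MED30. For MED30, 32.7% and 74% were recovered. The dispersion was set rather than estimated and was the same for all genes and libraries, and the MED30 values were drawn as counts. The rates hold for that setting and may differ in the real libraries. Alternatives were other scalings, no filter, DESeq2 1.42.0, other fits, thinned counts, pseudocounts, a replicate block, leaving out each library, exon length and a looser motif.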

Additional observations from a re-analysis of the deposited data

Results flagged for a closer look

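Among the named genes of the chosen lists, 5 had a response to Dox that differed between MYC&MED30 and the MYC-labelled set. The test was that of the difference (edgeR, adjusted over 19318 genes), by which 207 of all tested genes were called (1.07%, with 0.714% positive and 0.357% negative). The difference, MYC&MED30 minus the MYC-labelled set, was 1.72 on the log2 scale for MYC, 0.66 for MNT, 0.62 for RCC1, 0.78 for KLF10 and 0.61 for SREBF1. MYC was called with each library left out in turn, whereas the other 4 were not called without MYC control 1 or without MYC&MED30 control 1.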

How the results depend on the processing

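MYC kept its direction and its call in all settings of the 5 comparisons, with 1.11 to 1.2 in MYC&MED30, -0.59 to -0.42 in the MYC-labelled set and -0.59 to -0.46 in MED30. Depth limits the MYC&MED30 controls most, since control 2 holds 1257499 counts. The replicate numbers did not pair the samples: log ratios of replicate 1 to 2 correlated between control and overexpression at -0.276 in the MYC-labelled set, -0.088 in MYC&MED30 and -0.272 in MED30. A replicate block brought the calls over all genes from 2518 to 1812, from 1302 to 929 and from 2392 to 2564, and a crossed block, chosen after seeing the data, gave 2705 in the MYC-labelled set and 4022 in MED30. Without MYC&MED30 control 1, 166 genes were called in MYC&MED30. The cause of these shifts was not tested.

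The count of network genes called was 1 with thinned counts in the Dox responses of both raw-count sets and in their difference, and 3 without Dox. It was 1 with the replicate block in the difference and in MED30, where it was also 1 with library size alone and with no filter. With each library left out in turn, it ran from 1 to 3 in both raw-count sets, from 1 to 2 in the difference, from 3 to 9 without Dox and from 1 to 4 in MED30. MYC over MAX per exon length was 7.44 and 4.92 in the MYC-labelled set (control and Dox), 3.82 and 7.86 in MYC&MED30 and 12.4 and 7.98 in MED30. CANNTG was found for 8 genes.

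Some values changed sign in other settings. In the main fit, all of them but MLX without Dox were not called. Not all were near 0, since MLX and MXD4 without Dox were each at -0.40 and MXD3 in MYC&MED30 was at 0.33. A few were called in other settings, as given above. In the MYC-labelled set, library size alone gave 0.09 for MXD3 and 0.14 for MNT, and MNT was 0.03 with the upper quartile and 0.01 with 4 libraries. Thinned counts gave 0.11 for MNT, -0.24 for MAX, -0.05 for MXI1 and 0.42 for MLX. With libraries left out, MXD3 ran from -0.15 to 0.04, MNT from -0.10 to 0.08 and MAX from -0.07 to 0.15. In MYC&MED30, MLX was -0.07 and -0.13 with DESeq2 on 8 and 4 libraries, -0.11 with the replicate block and -0.10 with the crossed block, and MXD4 was -0.06 with DESeq2 on 4. Thinned counts gave -0.21 for MLX, -0.81 for MXD4 and -0.03 for MXI1. With libraries left out, MLX ran from -0.48 to 0.15, MXD4 from -0.45 to 0.21, MXD3 from -0.02 to 0.40, MXD1 from -0.05 to 0.31 and MAX from 0.00 to 0.21. In the difference, MAX was -0.08 with library size alone and -0.01 with DESeq2 size factors, the upper quartile and DESeq2, and PVT1 was -0.04 with library size alone and 0.00 with thinned counts, which gave 0.02 for MXI1 and -0.62 for MLX. With libraries left out, MAX ran from -0.11 to 0.18, MXI1 from -0.25 to 0.07, MLX from -0.31 to 0.33 and MYCL from -0.17 to 0.14. Without Dox, MLX was 0.07 with thinned counts and ran from -0.51 to 0.13, and MXD4 from -0.51 to 0.17. In MED30, MXD3 was 0.08 with library size alone and ran from -0.14 to 0.11, MNT from -0.11 to 0.16 and MXI1 from -0.03 to 0.31.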
